A study of Mus musculus with 18 samples.

Results

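Mouse skin flaps that had lain over a printed mesh spacer labelled D100L150 were compared, gene by gene, with flaps labelled Control. The comparison takes 3 D100L150 libraries and 3 Control libraries of the 18 in the series, chosen by the group in their titles, and covers the 13078 of 27743 genes whose level reached 1 FPKM in at least 3 of the 18 libraries. All flaps were raised surgically on mouse skin and collected at day 7. In the D100L150 group a near-field electrostatic printed mesh lay beneath the flap, and in the Control group the flap was modelled and left untreated, with no sham spacer named. The other 4 spacer groups, D15L100, D15L150, D15L200 and D150L150, also with 3 libraries each, shared in the estimate of spread. The series varies mesh diameter and spacing, but what D and L stand for, and in which unit, is not stated in the labels. Strain, sex and age are not stated either, nor is how many animals gave the 3 flaps of a group, so that p-values measure the spread between libraries only. FPKM is a fragment count scaled by gene length and by the fragments counted in the library, and the libraries held 28422344 to 35327357 recovered fragments.

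Epidermis is renewed from basal keratinocytes that carry keratins 5 and 14, and cells leaving the basal layer change to keratins 1 and 10 before they build the cornified envelope, a shell of cross-linked proteins. At a wound edge keratinocytes follow another course, in which keratins 6, 16 and 17, gap junction proteins, small proline-rich proteins and desquamation proteases become abundant. In flap skin the thin panniculus carnosus muscle, dermal vessels, fat and hair follicles are sampled along with the epidermis, and their transcripts share 1 library.

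Library 1 of each group stood apart from its group. The log2(FPKM + 1) values of Control 1 correlated with those of Control 2 and 3 at r = 0.9215 and 0.9399, where Control 2 and 3 correlated at 0.9785. D100L150 1 correlated with D100L150 2 and 3 at 0.9302 and 0.9374, where those libraries correlated at 0.9592. Correlation did not separate the groups, since D100L150 2 and 3 correlated more with Control 3, at 0.9646 and 0.9743, than with any D100L150 library. Library 1 of each group held much RNA of inflammatory genes and little of T cell and fat cell genes. The listed neutrophil genes summed to 10880.5, 2331 and 3275 FPKM in D100L150 1, 2 and 3, against 6935, 1132 and 3295 FPKM in Control 1, 2 and 3. For the T and NK cell genes the sums were 3.4, 21.9 and 14.3 FPKM in D100L150 and 3.94, 19.7 and 30.8 FPKM in Control. Adiponectin (Adipoq), a product of fat cells, had 0.734, 39.6 and 10.1 FPKM in D100L150 and 2.5, 66.4 and 24.1 FPKM in Control. Control 1 was also the lowest of the 6 libraries in cornified genes and the highest in endothelial genes, with 39.3 FPKM summed over the late cornified envelope genes, against 408 and 375 FPKM in Control 2 and 3. The labelled tissue was checked by its basal keratin, and Krt14 was abundant in every library, at 4554, 3966 and 3336 FPKM in D100L150 and 788, 1711 and 1692 FPKM in Control.

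**Figure D1:**
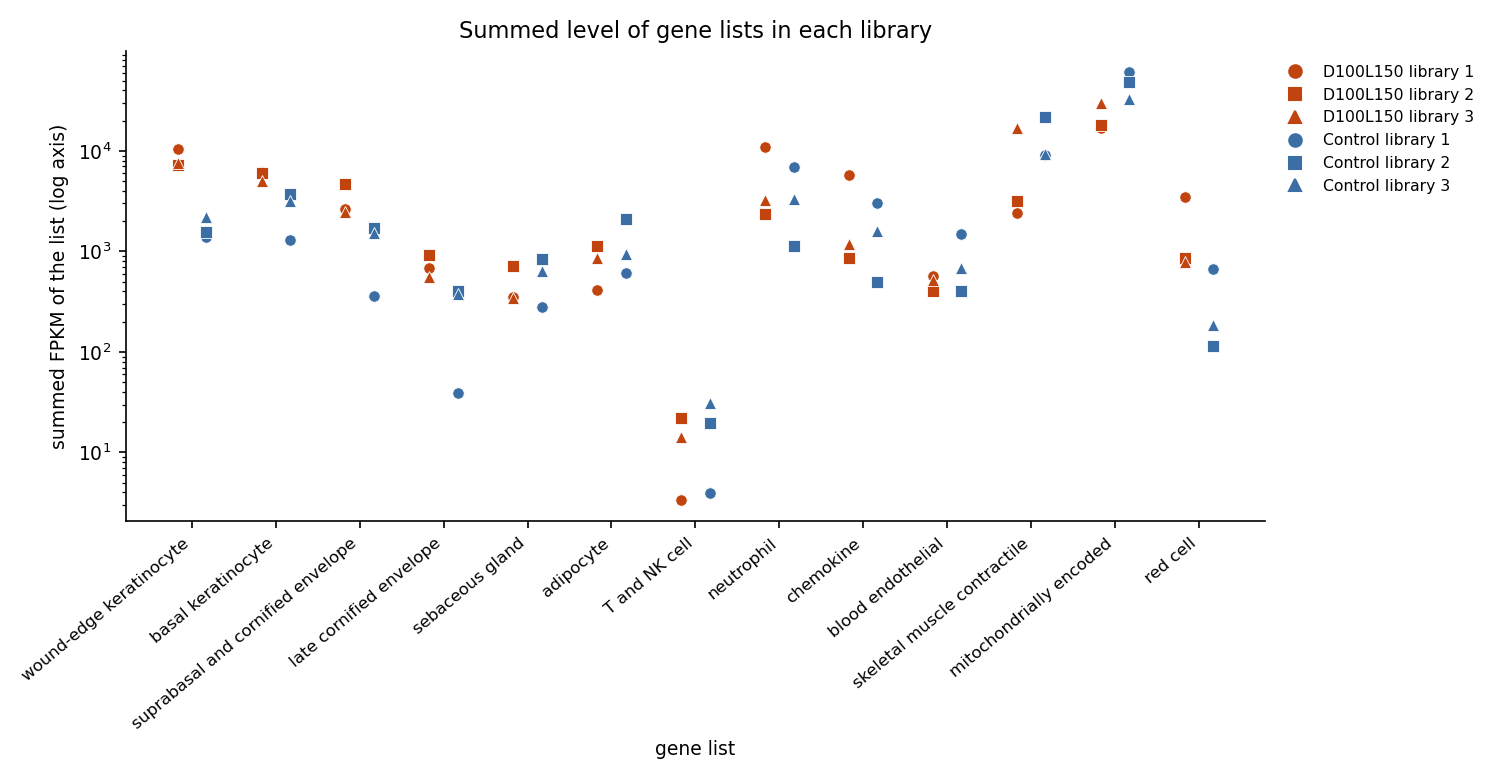
Summed FPKM (log axis) of 13 gene lists in each of the 3 D100L150 (left, orange) and 3 Control (right, blue) libraries, with the symbol giving the library number. Wound-edge sums lie between 7178 and 10511 FPKM in D100L150 and between 1378 and 2213 FPKM in Control, while library 1 of each group is the highest of its group in neutrophil and chemokine genes and the lowest in T and NK cell genes.

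The D100L150 flaps carried more RNA of several keratinocyte gene lists, with 8 of 13 wound-edge, 8 of 14 desmosome and 6 of 13 small proline-rich genes called higher. Calls were fewer in the lists of cornification, with 2 of 20 suprabasal and cornified envelope genes and 3 of 21 late cornified envelope genes. The genes called lower were scattered over functions and included the mitochondrially encoded ATP8, the neuromuscular junction genes Musk and Colq and the smooth muscle kinase Mylk. Across all genes, 181 were called, that is, had a Benjamini-Hochberg adjusted p under 0.05 in the limma fit, which is 1.38% of the 13078 tested. Of these, 139 (1.06%) were higher in D100L150 and 42 (0.321%) were lower. The higher genes made up 76.8% of the calls, and 87.3% of 173 calls after quantile scaling, but this balance rested on single libraries. Without D100L150 2 there were 120 higher and 184 lower calls, and without D100L150 3 there were 156 higher and 151 lower calls. At an unadjusted p under 0.05 there were 2756 genes, 1205 higher and 1551 lower. The median log2 difference over all genes was -0.05, with quartiles of -0.26 and 0.15, so most genes differed little. The called higher genes had a median log2 difference of 1.97, with a median standard error of 0.37, and ran from 0.42 to 3.69. The called lower genes had a median of -0.68, with a median standard error of 0.14, and ran from -1.89 to -0.37. With the genes ranked by mean level into 4 groups of equal size, the most abundant group held 68 of the higher calls and 2 of the lower calls. The least abundant group held 15 of the higher calls and 27 of the lower calls. Since whole flap tissue was sampled, fewer cells of a type and less RNA per cell cannot be told apart.

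**Figure D2:**
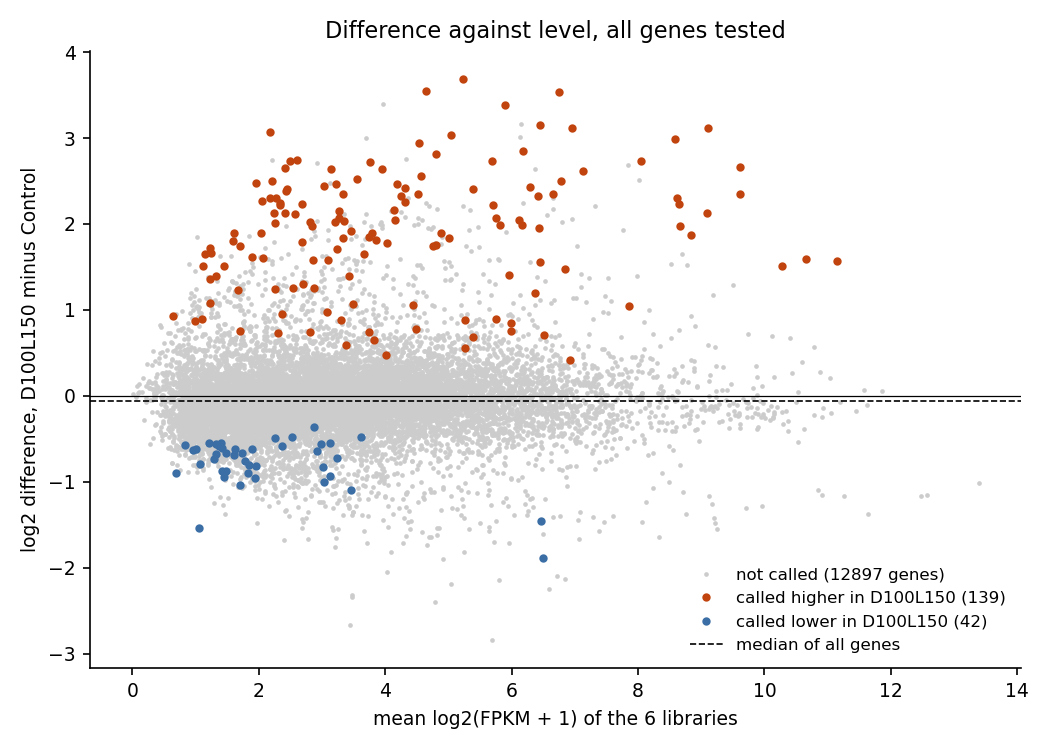
Log2 difference (D100L150 minus Control, vertical axis) against the mean log2(FPKM + 1) of the 6 libraries (horizontal axis) for the 13078 genes tested. The 139 genes called higher (orange) reach a log2 difference of 3.69 and extend to the highest levels, while the 42 called lower (blue) lie mostly at low levels, with ATP8 and Igfbp5 as the abundant exceptions.

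The number of calls rested on library 1 of each group. Without Control 1 limma called no gene, with a smallest adjusted p of 0.0521 and 2215 genes at an unadjusted p under 0.05. Without D100L150 1 it called none either, with a smallest adjusted p of 0.0735 and 1509 genes at an unadjusted p under 0.05. The sizes moved less than the calls. The 139 higher genes had a median log2 difference of 1.69 without Control 1 and 1.79 without D100L150 1. The 42 lower genes had a median of -0.62 in both cases. In every called gene the 3 D100L150 values and the 3 Control values did not overlap, which fixes the direction when a library is left out. Over all genes, 11.0% had every D100L150 value above every Control value and 10.8% had every D100L150 value below.

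**Figure D3:**
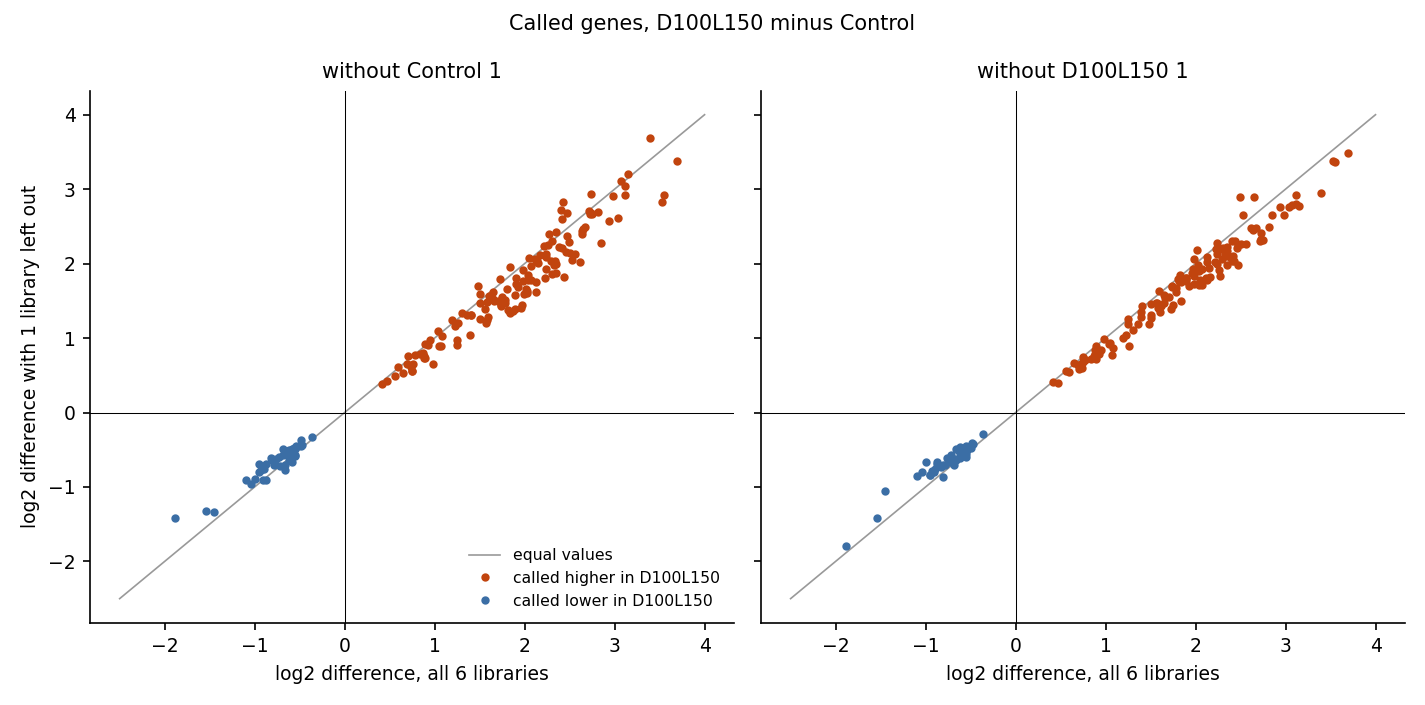
Log2 differences of the 181 called genes from all 6 libraries (horizontal axis) against those without Control 1 (left panel) or without D100L150 1 (right panel). Most points lie nearer 0 than the line of equal values, with medians for the genes called higher of 1.69 without Control 1 and 1.79 without D100L150 1.

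Most listed genes of the wound-edge keratinocyte rose. Of 13 listed genes tested, 8 were called higher and none lower. The median log2 difference of the 13 was 2.24, or 1.99 without Control 1 and 2.03 without D100L150 1. Krt6a, a keratin of activated keratinocytes, had 2592, 1742 and 1717 FPKM in D100L150 1, 2 and 3, against 241, 301 and 413 FPKM in Control 1, 2 and 3. All D100L150 flaps lay far above all Control flaps (2.67 ± 0.33, adjusted p = 0.00737; values with ± are log2 differences of D100L150 minus Control with their standard error, here and in the following unless said otherwise). Its near-identical neighbour Krt6b had 2136, 1405 and 1437 FPKM in D100L150 and 142, 132 and 348 FPKM in Control (3.12 ± 0.45, adjusted p = 0.0108). Reads of the 2 copies may be shared between them, so the split is uncertain. The type I partner Krt16 had 2243, 1591 and 1547 FPKM in D100L150 and 211, 354 and 559 FPKM in Control (2.34 ± 0.37, adjusted p = 0.0121). Krt17, the other stress keratin of the list, had 1299, 1119 and 1010.0 FPKM in D100L150 and 155, 355 and 319 FPKM in Control (2.12 ± 0.40, adjusted p = 0.0283). In both genes D100L150 1 was the highest library and Control 1 the lowest.

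Both connexin genes of the list were called. Gjb2, which encodes connexin 26, had 567, 301 and 289 FPKM in D100L150 and 37.1, 33.7 and 56.6 FPKM in Control (3.12 ± 0.42, adjusted p = 0.00958). Gjb6, encoding connexin 30 and lying beside Gjb2 on chromosome 14, had 83.7, 43.8 and 35.1 FPKM in D100L150 and 10.3, 6.17 and 11.9 FPKM in Control (2.35 ± 0.39, adjusted p = 0.0164). Neither gene overlapped between groups. The cysteine protease inhibitor Stfa1 had 820.4, 709.6 and 1127 FPKM in D100L150 and 149.8, 174 and 238 FPKM in Control (2.24 ± 0.36, adjusted p = 0.0154). Its family has near-identical copies, so that its own level is uncertain. The other 5 genes of the list were not called. They were the urokinase Plau and its receptor Plaur, the fibronectin receptor chain Itga5, the matrix protein Tnc and the AP-1 subunit Fosl1, with log2 differences from 0.11 for Tnc to 0.72 for Fosl1. Without D100L150 1 the value for Plaur was -0.65 and that for Fosl1 0.07, and only 9 of the 13 listed genes stayed positive.

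**Figure D4:**
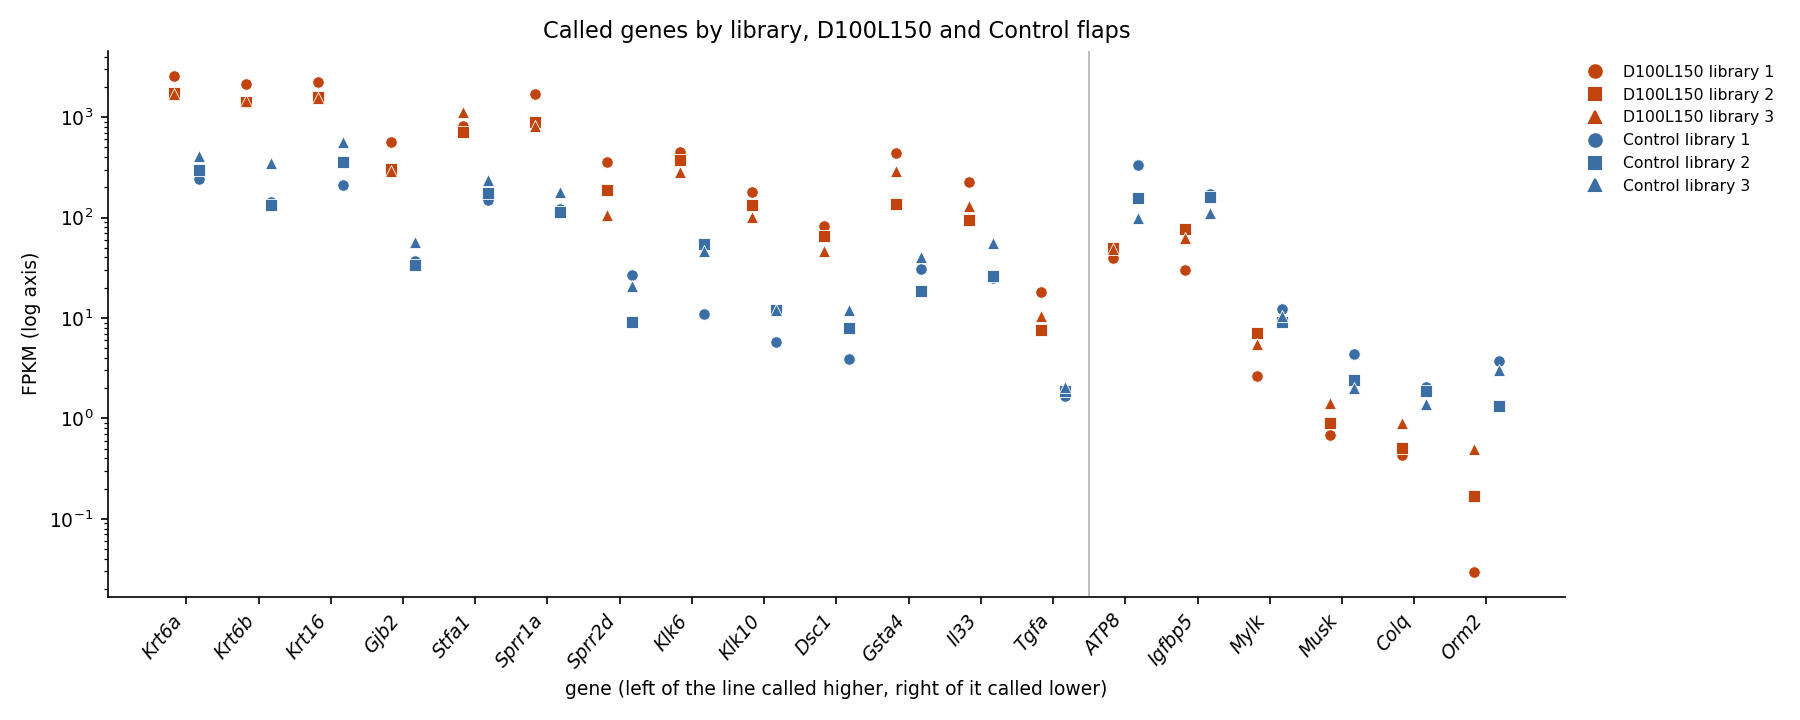
FPKM (log axis) of 19 called genes in the 3 D100L150 (left of each pair, orange) and 3 Control (right, blue) libraries, with the symbol giving the library number. No gene overlaps between the groups, and the widest gap in the lower genes is that of Orm2, at 0.0296 to 0.493 FPKM in D100L150 and 1.32 to 3.74 FPKM in Control.

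Basal keratinocyte genes were called in part. The 12 listed basal genes summed to 6135, 6029 and 5048 FPKM in D100L150 1, 2 and 3, against 1314, 3721 and 3190 FPKM in Control 1, 2 and 3. Of the 12 genes, 2 were called higher, and the median log2 difference was 1.03, or 0.80 without Control 1. Krt14 passed the test (1.57 ± 0.32, adjusted p = 0.0323), whereas its partner Krt5 had 1239.5, 1626 and 1399 FPKM in D100L150 and 429, 1458 and 1062 FPKM in Control and overlapped (0.69 ± 0.41, adjusted p = 0.342). The other call was Lama3, the alpha chain of laminin-332, at 29.8, 13.6 and 14.6 FPKM in D100L150 and 5.3, 4.06 and 3.78 FPKM in Control (1.84 ± 0.38, adjusted p = 0.0353). Lamb3, the beta chain, did not overlap but missed the threshold (1.49 ± 0.36, adjusted p = 0.0567). Krt15, a keratin of quiescent basal and follicle cells, had 9.63, 201 and 43.1 FPKM in D100L150 and 5.38, 386 and 281 FPKM in Control. It was low in library 1 of both groups, and its log2 difference was -0.96 ± 1.33 (adjusted p = 0.702), or -2.86 without Control 1. The part of a larger keratinocyte share in the results on keratinocyte genes was not tested. As a description, the wound-edge sum divided by the basal sum was 1.71, 1.19 and 1.49 in D100L150 1, 2 and 3 and 1.05, 0.422 and 0.694 in Control 1, 2 and 3, and the groups did not overlap. For the 20 suprabasal and cornified envelope genes the same ratio was 0.429, 0.778 and 0.486 in D100L150 and 0.272, 0.455 and 0.481 in Control, and the groups overlapped.

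Small proline-rich proteins are envelope precursors that transglutaminases cross-link, and their genes lie in a row on chromosome 3. Of 13 tested, 6 were called higher and none lower. The median log2 difference was 2.73, or 2.67 without Control 1 and 2.45 without D100L150 1. The promoters of the 4 called genes of this family that hold both an AP-1 motif and a TATA box are shown. AP-1 is a known regulator of the family, but its part in these differences was not tested. Each runs from 250 bases before to 50 bases after the gene's start, 5′ to 3′ on the gene's strand, as given by RefSeq for GRCm38.p6, with the AP-1 motif and the TATA box in capitals.
Sprr1a: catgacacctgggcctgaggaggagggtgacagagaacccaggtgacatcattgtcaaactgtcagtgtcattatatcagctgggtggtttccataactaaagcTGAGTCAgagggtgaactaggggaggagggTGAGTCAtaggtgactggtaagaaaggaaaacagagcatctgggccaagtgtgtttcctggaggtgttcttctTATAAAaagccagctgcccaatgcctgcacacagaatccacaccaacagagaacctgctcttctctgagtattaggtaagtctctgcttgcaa
Sprr1b: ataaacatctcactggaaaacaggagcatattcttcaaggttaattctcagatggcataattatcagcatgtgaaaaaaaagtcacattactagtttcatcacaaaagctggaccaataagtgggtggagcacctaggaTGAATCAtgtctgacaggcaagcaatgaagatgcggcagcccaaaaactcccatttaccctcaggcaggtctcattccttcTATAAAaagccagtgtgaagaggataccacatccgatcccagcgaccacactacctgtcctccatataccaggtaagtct
Sprr2d: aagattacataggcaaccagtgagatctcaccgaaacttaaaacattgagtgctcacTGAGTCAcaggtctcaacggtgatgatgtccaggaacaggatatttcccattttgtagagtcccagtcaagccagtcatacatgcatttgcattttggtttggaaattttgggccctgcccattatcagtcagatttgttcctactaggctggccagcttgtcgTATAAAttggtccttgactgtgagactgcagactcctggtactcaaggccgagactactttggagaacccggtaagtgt
Sprr2h: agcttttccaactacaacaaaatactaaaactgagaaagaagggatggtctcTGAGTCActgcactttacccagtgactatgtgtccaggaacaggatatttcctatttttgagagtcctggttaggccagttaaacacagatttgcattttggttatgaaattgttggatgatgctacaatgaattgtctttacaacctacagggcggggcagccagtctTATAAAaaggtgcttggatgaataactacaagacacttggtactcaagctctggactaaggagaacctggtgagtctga
These windows are chr3:92485832-92486131 on the minus strand for Sprr1a, chr3:92438730-92439029 on the minus strand for Sprr1b, chr3:92338890-92339189 on the plus strand for Sprr2d and chr3:92385435-92385734 on the plus strand for Sprr2h. Relative to the start, the AP-1 match began at -146 and -116 in Sprr1a, -111 in Sprr1b, -193 in Sprr2d and -198 in Sprr2h. The TATA box began at -43, -30, -29 and -29 in the same order.

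A set of 4 motifs was searched on both strands of 1 window for each gene that had one, which was 101 of the 139 higher genes, 35 of the 42 lower genes and 10425 of the 13078 tested. The AP-1 motif TGANTCA was found in 10.9% of the higher genes, 11.4% of the lower genes and 5.79% of all genes. The TATA box TATAAA was found in 14.9% of the higher, 8.57% of the lower and 8.22% of all genes. A grainyhead motif, AACCNGTT, was in 3.96% of the higher, 2.86% of the lower and 1.8% of all genes. The antioxidant response element TGACNNNGC was in 16.8% of the higher, 11.4% of the lower and 15% of all genes. In Sprr1a the antioxidant motif began at -148 and overlapped the AP-1 match at -146. The windows of Sprr2a1 and Sprr2a2, the other called genes of the family, held neither the AP-1 motif nor the TATA box. A match is a description of the letters and was not tested as a site.

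Sprr1a had 1711, 902 and 809 FPKM in D100L150 and 121, 114 and 179.7 FPKM in Control (2.98 ± 0.56, adjusted p = 0.0283). Sprr1b, its neighbour, had 1055, 509.9 and 586 FPKM in D100L150 and 93.4, 76.8 and 146 FPKM in Control (2.73 ± 0.51, adjusted p = 0.0283). D100L150 1 was the highest library for both genes, and without it the log2 differences were 2.65 and 2.42. Sprr2d rose most, with 355, 186 and 105 FPKM in D100L150 and 26.8, 9.03 and 21 FPKM in Control (3.39 ± 0.71, adjusted p = 0.0351). Sprr2h had 235, 101 and 98.1 FPKM in D100L150 and 25.4, 13.4 and 20.4 FPKM in Control (2.73 ± 0.61, adjusted p = 0.0438). Sprr2a1 and Sprr2a2 showed another order among libraries, with D100L150 2 highest. Sprr2a2 had 8.47, 24.5 and 8.78 FPKM in D100L150 and 0.642, 2.52 and 0.661 FPKM in Control (2.65 ± 0.58, adjusted p = 0.0416). The Sprr2 genes are near-identical copies, so their levels one by one are uncertain. Of the 13 genes, 11 had every D100L150 value above every Control value, where 11.0% of all genes did.

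The late cornified envelope genes that were called belong to 1 family. Of 21 tested, 3 were called higher, all of the Lce3 group, which is known in human skin as the injury-induced group. The median log2 difference was 1.93, or 0.71 without Control 1. Lce3f had 18.6, 13.6 and 7.04 FPKM in D100L150 and 0.667, 1.02 and 0.156 FPKM in Control (3.07 ± 0.51, adjusted p = 0.0164). Lce3e had 24, 15.5 and 6.45 FPKM in D100L150 and 0.995, 2.33 and 0.585 FPKM in Control (2.73 ± 0.55, adjusted p = 0.0322), and Lce3d had a log2 difference of 2.72 ± 0.62 (adjusted p = 0.0481). Without Control 1 these differences were 3.11, 2.66 and 2.70. Lce1a1, of the family expressed in normal cornification, had 59.4, 119 and 65.3 FPKM in D100L150 and 1.8, 61.7 and 49 FPKM in Control. Its Control values were spread from near 0 to the D100L150 range, and its log2 difference was 1.93 ± 0.96 (adjusted p = 0.263), or 0.49 without Control 1. Whether the Lce3 and Lce1 families differ from each other was not tested.

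The keratins of normal suprabasal cells did not pass the test. Krt1 had 79.7, 1091 and 291 FPKM in D100L150 and 19.99, 269 and 263 FPKM in Control (1.37 ± 1.03, adjusted p = 0.457), and Krt10 had 11.2, 215 and 70.2 FPKM in D100L150 and 4, 49.6 and 56.4 FPKM in Control (1.23 ± 1.17, adjusted p = 0.563). In both genes library 1 was the lowest of its group, and without Control 1 the log2 differences were 0.14 and 0.09. Loricrin (Lor), a main envelope protein, had 76.9, 298 and 108 FPKM in D100L150 and 11.2, 113 and 102 FPKM in Control (1.38 ± 0.87, adjusted p = 0.371). Filaggrin (Flg), which bundles keratin filaments, likewise overlapped (0.64 ± 0.81, adjusted p = 0.669). The 2 calls among the 20 suprabasal and cornified envelope genes were the cross-linking enzymes. Tgm3 had 27.6, 8.06 and 14.1 FPKM in D100L150 and 1.1, 1.18 and 1.82 FPKM in Control (2.75 ± 0.52, adjusted p = 0.0283), and Tgm1 had 59.2, 30.4 and 26.5 FPKM in D100L150 and 6.68, 6.26 and 9.31 FPKM in Control (2.17 ± 0.39, adjusted p = 0.0233). The list's median was 1.47, or 0.83 without Control 1.

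Kallikreins are serine proteases that cleave desmosomal proteins during shedding of the outer layer. Of 14 listed proteases and regulators, 6 were called higher and none lower, with a median log2 difference of 2.02, or 1.56 without Control 1. Klk10 showed the largest log2 difference of all called genes, with 178, 133 and 102 FPKM in D100L150 and 5.78, 12 and 12.1 FPKM in Control (3.69 ± 0.64, adjusted p = 0.0196). Klk6 had 450.3, 374 and 286 FPKM in D100L150 and 10.8, 55 and 46.4 FPKM in Control (3.53 ± 0.50, adjusted p = 0.0108). Control 1 was the lowest library for both, and without it the log2 differences were 3.37 and 2.82. Klk7, the chymotrypsin-like enzyme of the outer layer, had 416, 364 and 272 FPKM in D100L150 and 23.6, 86 and 82.9 FPKM in Control (2.62 ± 0.50, adjusted p = 0.0283). Klk9 and Klk13 also rose, by log2 differences of 2.56 ± 0.54 (adjusted p = 0.0383) and 2.33 ± 0.47 (adjusted p = 0.0321). The inhibitor of these enzymes rose with them: Spink5, which encodes LEKTI, had 138, 85.7 and 68.5 FPKM in D100L150 and 5.34, 12.4 and 16.8 FPKM in Control (3.04 ± 0.58, adjusted p = 0.0283). Klk5, the trypsin-like activator of the cascade, had 52.3, 61.7 and 27.2 FPKM in D100L150 and 3.07, 14 and 11.8 FPKM in Control and missed the threshold (2.31 ± 0.61, adjusted p = 0.0727). The summed list divided by the basal keratinocyte sum was 0.245, 0.211 and 0.176 in D100L150 1, 2 and 3 and 0.0565, 0.068 and 0.0726 in Control 1, 2 and 3.

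Desmosomes, which rivet keratinocytes together, hold targets of those proteases. Of 14 listed desmosome genes, 8 were called higher and none lower, with a median log2 difference of 2.08, or 1.45 without Control 1. Log2 differences were positive in 12 genes and negative in 2, the lowest at -0.56. In 12 genes every D100L150 value lay above every Control value, where 11.0% of all genes did. In 1 gene every D100L150 value lay below, where 10.8% of all genes did. Among the cadherins, Dsc1 of the upper layers had 82, 66.1 and 46.4 FPKM in D100L150 and 3.94, 7.96 and 12.1 FPKM in Control (2.94 ± 0.51, adjusted p = 0.0196). Dsg3 of the lower layers had 59, 34.6 and 35.3 FPKM in D100L150 and 4.03, 8.56 and 8.65 FPKM in Control (2.46 ± 0.49, adjusted p = 0.0321). Dsc2 and Dsg1b, which has close copies, rose by log2 differences of 2.47 ± 0.47 (adjusted p = 0.0283) and 2.41 ± 0.37 (adjusted p = 0.0121). Cadherins of low and high layers were thus both called, whereas Dsg2, a cadherin found in many epithelia, was near the filter level, at 0.703, 1.87 and 0.552 FPKM in D100L150 and 0.556, 1.45 and 1.2 FPKM in Control. Corneodesmosin (Cdsn), which glues corneocytes and is a kallikrein substrate, had 255, 212 and 137 FPKM in D100L150 and 11.4, 38.7 and 39.9 FPKM in Control (2.85 ± 0.64, adjusted p = 0.0455). The plaque genes Pkp1 and Jup and the membrane gene Perp were called at smaller differences of 1.96 ± 0.44, 1.56 ± 0.34 and 1.87 ± 0.42 (adjusted p = 0.0455, 0.0416 and 0.0481). Desmoplakin (Dsp) did not overlap but missed the threshold (2.25 ± 0.53, adjusted p = 0.0538).

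Regulators and lipid enzymes of the barrier were called in part. Of 16 epidermal transcription factors 3 were called higher, with a list median of 1.31, or 0.79 without Control 1. Grhl3, a grainyhead factor of barrier formation and wound closure, had 31.5, 13.4 and 15.7 FPKM in D100L150 and 3.08, 4.01 and 4.14 FPKM in Control (2.07 ± 0.43, adjusted p = 0.0351). The terminal differentiation factors Zfp750 and Hopx rose by log2 differences of 1.81 ± 0.42 (adjusted p = 0.0498) and 1.75 ± 0.34 (adjusted p = 0.0321). The stem and progenitor regulator Trp63 did not pass (1.01 ± 0.35, adjusted p = 0.131). Of 15 barrier lipid genes 4 were called higher, with a median of 1.34, or 0.83 without Control 1. They were the ceramide synthase Cers3 (2.23 ± 0.38, adjusted p = 0.0182), the sphingolipid desaturase Degs2 (2.38 ± 0.46, adjusted p = 0.0295), the lipid transporter Abca12 (2.24 ± 0.46, adjusted p = 0.033) and the dehydrogenase Sdr9c7 (2.34 ± 0.50, adjusted p = 0.0383). Cers3 had 18.3, 10.9 and 10.6 FPKM in D100L150 and 1.56, 2.2 and 2.15 FPKM in Control, with a wide gap. Of 10 tight junction genes only Cldn4 was called, at 52.2, 37.4 and 22.4 FPKM in D100L150 and 8.16, 7.21 and 7.95 FPKM in Control (2.05 ± 0.47, adjusted p = 0.0481). Cldn1, the main epidermal claudin, was not (1.30 ± 0.54, adjusted p = 0.188).

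Of 14 antimicrobial and alarmin genes 4 were called higher, with a median of 1.01. The peptidoglycan recognition protein Pglyrp3 had 13.8, 8.6 and 7.76 FPKM in D100L150 and 0.521, 1.9 and 1.38 FPKM in Control (2.30 ± 0.34, adjusted p = 0.0111), and Pglyrp4 beside it rose by a log2 difference of 2.31 ± 0.49 (adjusted p = 0.0383). Beta-defensins were among the calls: Defb1 had 67.4, 59 and 44.2 FPKM in D100L150 and 8.82, 18.3 and 18 FPKM in Control (1.90 ± 0.38, adjusted p = 0.0321), and the inducible Defb4 had 5.79, 2.23 and 2.57 FPKM in D100L150 and 0.416, 0.132 and 0.352 FPKM in Control (1.72 ± 0.40, adjusted p = 0.0498). S100a8, a calprotectin subunit, was highest in library 1 of each group, with 3646, 1049 and 1327 FPKM in D100L150 and 2109, 504 and 1182 FPKM in Control (0.67 ± 0.69, adjusted p = 0.594). Of 13 interleukin 1 and 36 family genes 1 was called. This was Il33, the barrier alarmin cytokine, at 224, 93.7 and 132 FPKM in D100L150 and 25, 26.4 and 55.5 FPKM in Control (2.04 ± 0.46, adjusted p = 0.0459). Il1b, by contrast, had 689.7, 79.8 and 106 FPKM in D100L150 and 564, 72.9 and 223 FPKM in Control and followed library 1 (-0.21 ± 1.23, adjusted p = 0.933).

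Among the 9 EGF ligand and receptor genes, every log2 difference was positive and 1 was called. Tgfa, the keratinocyte ligand of the EGF receptor, had 18.1, 7.64 and 10.5 FPKM in D100L150 and 1.67, 1.87 and 2.05 FPKM in Control (2.11 ± 0.40, adjusted p = 0.0283). The ligands Hbegf and Areg did not overlap either but missed the threshold, with 1.99 ± 0.50 (adjusted p = 0.0616) and 1.98 ± 0.73 (adjusted p = 0.146). Of 15 NRF2-type antioxidant genes 1 was called, with a list median of 0.39, or 0.17 without D100L150 1. Gsta4, a glutathione transferase that clears lipid aldehydes, had 438, 138 and 289.5 FPKM in D100L150 and 30.5, 18.6 and 40.04 FPKM in Control (3.15 ± 0.62, adjusted p = 0.0321). Nqo1 and Gclc, the usual readouts of that pathway, were not called (0.57 ± 0.22 and 0.15 ± 0.16, adjusted p = 0.165 and 0.621). In the Ly6 and uPAR family 3 of 11 genes were called, although the list median was 0.15 and changed sign to -0.20 without Control 1, and was 0.69 without D100L150 1. They were Lypd5, with 111, 78 and 70.5 FPKM in D100L150 and 2.08, 8.06 and 13.1 FPKM in Control (3.55 ± 0.73, adjusted p = 0.0345), Lypd3 (2.5 ± 0.39, adjusted p = 0.0121) and the keratinocyte surface protein Ly6d (2.30 ± 0.46, adjusted p = 0.0321). Of 9 clade B serpins, which are protease inhibitors, Serpinb6c had 27.8, 17.8 and 18.7 FPKM in D100L150 and 1.52, 2.07 and 4.7 FPKM in Control (2.64 ± 0.34, adjusted p = 0.00796). Serpinb3b was the other call (1.97 ± 0.45, adjusted p = 0.0481), and both have close copies that may share reads.

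The lists together held 55 of the 139 higher genes and 603 of the 13078 genes tested. Of the genes outside them, the endoribonuclease gene Endou was named by size, with 116, 61.2 and 55.8 FPKM in D100L150 and 7.99, 8.92 and 12.3 FPKM in Control (2.81 ± 0.42, adjusted p = 0.0111). The following were chosen after their values were seen. The glycerol channel Aqp3 of basal keratinocytes had 268, 192 and 225 FPKM in D100L150 and 22.1, 68 and 54.8 FPKM in Control (2.35 ± 0.41, adjusted p = 0.0199). The hyaluronan synthase Has3 had 11.5, 5.2 and 9 FPKM in D100L150 and 0.431, 0.94 and 0.615 FPKM in Control (2.48 ± 0.53, adjusted p = 0.0389). Both retinoid carriers called, Rbp2 and Crabp2, rose by log2 differences of 2.22 ± 0.39 and 2.07 ± 0.36 (adjusted p = 0.0201 and 0.0199). Consecutive enzymes of urate breakdown also passed, with Uox, the urate oxidase, at 2.27 ± 0.52 and Urah, the hydrolase of its product, at 2.33 ± 0.38 (adjusted p = 0.0481 and 0.0159). Urah was abundant, at 228, 143 and 209.7 FPKM in D100L150 and 23.7, 43.7 and 48.7 FPKM in Control. Stratifin (Sfn), an epithelial 14-3-3 protein, had 991, 738 and 721 FPKM in D100L150 and 152, 248 and 225 FPKM in Control (1.98 ± 0.30, adjusted p = 0.0111). The fatty acid carrier Fabp5 rose by a log2 difference of 1.51 ± 0.30 and the filaggrin-processing protease Blmh by one of 1.40 ± 0.30 (adjusted p = 0.0321 and 0.0416). The smallest called increase was that of the vesicle transport GTPase Rab1a, at 141, 143 and 136 FPKM in D100L150 and 100.1, 99 and 115 FPKM in Control (0.42 ± 0.09, adjusted p = 0.0429).

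Many higher genes lay side by side in the genome. In the epidermal differentiation complex, taken here as chr3:90669071-93293689 of GRCm38.p6, 11 of 48 tested genes were called higher (22.9%, against 1.06% of all genes), and all 48 had a positive log2 difference. In the kallikrein cluster, chr7:43680880-43851181, the higher calls were 5 of 10. The desmosomal cadherin cluster on chromosome 18 held 4 of 7, the type II keratin cluster on chromosome 15 held 3 of 7 and the type I keratin cluster on chromosome 11 held 3 of 10. None of these clusters held a gene called lower. Neighbours of 1 family share sequence, so these counts are not of independent genes.

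Mitochondrially encoded transcripts, which code for subunits of the respiratory chain and ATP synthase, were compared by their share of summed FPKM. It was 3.73%, 4.09% and 6.64% in D100L150 1, 2 and 3, against 12.5%, 10.7% and 7.4% in Control 1, 2 and 3. The groups did not overlap, with means of 4.82% ± 1.59 in D100L150 and 10.2% ± 2.61 in Control (SD, n = 3 each). The difference of -5.41 percentage points had p = 0.1 in a two-sided exact permutation test, the smallest p that 3 against 3 libraries allow. All 13 mitochondrial genes tested had negative log2 differences, with a median of -1.19, or -1.03 without Control 1. Of the 13, 9 had every D100L150 value below every Control value, where 10.8% of all genes did. The 1 call was ATP8. This gene, for a subunit of the mitochondrial ATP synthase, had 39.9, 49.5 and 48.9 FPKM in D100L150 and 333, 156 and 98.4 FPKM in Control (-1.89 ± 0.39, adjusted p = 0.0323). Without Control 1 its log2 difference was -1.42. ATP8 overlaps ATP6, which had 135, 136 and 225 FPKM in D100L150 and 800.2, 391 and 283 FPKM in Control and missed the threshold (-1.47 ± 0.35, adjusted p = 0.0532), and their reads cannot be fully told apart. The nuclear genes of oxidative phosphorylation also lay below 0 in all 21 cases but by less, with a median of -0.31, or -0.12 without D100L150 1, and none was called.

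Muscle RNA lay lower in most D100L150 flaps but was not called. The 20 contractile genes of skeletal muscle summed to 2417, 3156 and 16854 FPKM in D100L150 1, 2 and 3, against 9199, 21764 and 9416 FPKM in Control 1, 2 and 3. The groups overlapped through D100L150 3, and no contractile gene was called, with a median of -1.45, or -0.85 without D100L150 1. Creatine kinase Ckm, for instance, had 123, 177 and 2028 FPKM in D100L150 and 717, 1968 and 797 FPKM in Control (-1.55 ± 1.08, adjusted p = 0.42). With the muscle level as a covariate, ATP8 differed by -1.76 with an adjusted p of 0.134. Genes of the neuromuscular junction held calls. Musk, the receptor kinase that organises the junction, had 0.69, 0.902 and 1.41 FPKM in D100L150 and 4.41, 2.41 and 2 FPKM in Control (-0.95 ± 0.20, adjusted p = 0.0383). Colq, the collagen tail that anchors acetylcholinesterase there, had 0.434, 0.507 and 0.894 FPKM in D100L150 and 2.08, 1.85 and 1.4 FPKM in Control (-0.79 ± 0.16, adjusted p = 0.0321). The acetylcholine receptor subunits Chrnd and Chrnb1 did not overlap but missed the threshold (-1.25 ± 0.32 and -1.07 ± 0.30, adjusted p = 0.0677 and 0.0821). All 11 genes of the denervation and regeneration list had negative log2 differences, with a median of -1.10, or -0.81 without D100L150 1. With the muscle covariate Musk differed by -0.88 (adjusted p = 0.148). The part of muscle content in the other results was not tested beyond that covariate. Under it 20 genes were called higher and 0 lower.

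The listed pericyte, smooth muscle and blood endothelial genes had negative differences and 1 call. The 5 lymphatic endothelial genes tested had positive differences, with a median of 0.53 and no call. All 14 pericyte and smooth muscle genes had negative log2 differences, with a median of -0.77, or -0.71 without Control 1 and -0.58 without D100L150 1. Mylk, the kinase that activates smooth muscle myosin, had 2.64, 7.14 and 5.53 FPKM in D100L150 and 12.2, 9.21 and 10.4 FPKM in Control (-0.997 ± 0.23, adjusted p = 0.0483). It was the 1 call of the list. Of the 14 genes, 8 had every D100L150 value below every Control value, where 10.8% of all genes did. Rgs5, a pericyte marker, had 9.01, 43.1 and 44.5 FPKM in D100L150 and 76.3, 78 and 69.9 FPKM in Control (-1.48 ± 0.46, adjusted p = 0.104). Outside the list, Gucy1b1, the nitric oxide receptor subunit of smooth muscle, had 1.54, 2.37 and 1.92 FPKM in D100L150 and 5.65, 2.94 and 4.16 FPKM in Control (-0.81 ± 0.19, adjusted p = 0.0481). Foxs1, a transcription factor of perivascular cells, had 1.97, 1.72 and 1.53 FPKM in D100L150 and 5, 3.47 and 3.05 FPKM in Control (-0.80 ± 0.17, adjusted p = 0.0345). Lama5, a laminin chain of vessel and epithelial basement membranes, was called lower (-0.82 ± 0.19, adjusted p = 0.0492), as was the T-box factor Tbx2 (-1.04 ± 0.23, adjusted p = 0.0459). None of the 18 blood endothelial genes was called. Their median was -0.65, and it was -0.15 without Control 1, the library with the most endothelial RNA. Pecam1, the endothelial adhesion protein, had 101, 50.3 and 69.1 FPKM in D100L150 and 151, 47 and 79.1 FPKM in Control (-0.23 ± 0.44, adjusted p = 0.791).

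Among the other lower genes, Igfbp5 was the most abundant nuclear-encoded one. This secreted binder of insulin-like growth factors had 29.9, 76.5 and 62.8 FPKM in D100L150 and 172, 160.3 and 111 FPKM in Control (-1.45 ± 0.33, adjusted p = 0.0481). The ligands Igf1 and Igf2 were not called (-0.92 ± 0.55 and -1.53 ± 0.94, adjusted p = 0.345 and 0.36). Orm2, an acute phase glycoprotein, had 0.0296, 0.167 and 0.493 FPKM in D100L150 and 3.74, 1.32 and 3 FPKM in Control (-1.54 ± 0.35, adjusted p = 0.0481), while its paralogue Orm1 overlapped (-0.70 ± 0.80, adjusted p = 0.635). Aox1, an aldehyde oxidase, had 0.466, 1.14 and 1.43 FPKM in D100L150 and 2.47, 2.93 and 2.47 FPKM in Control (-0.88 ± 0.18, adjusted p = 0.0321). The mitochondrial enzyme Fahd1 (-0.93 ± 0.18, adjusted p = 0.0283) and the orphan receptor Gprc5c (-1.10 ± 0.25, adjusted p = 0.0481) were also called lower. The lists held 5 of the 42 lower genes.

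No gene of the immune cell lists was called. For macrophage genes the median was 0.28 over 16 genes, or 0.16 without Control 1 and 0.41 without D100L150 1, with the receptor Csf1r at 85, 150.3 and 97.9 FPKM in D100L150 and 58.6, 106 and 128 FPKM in Control (0.22 ± 0.30, adjusted p = 0.699). The neutrophil median was 0.61 with all libraries, 1.21 without Control 1 and 0.08 without D100L150 1. Chemokine genes had a median of -0.26, and 0.50 without Control 1. T and NK cell genes had a median of -0.22, which was -0.64 without Control 1 and 0.21 without D100L150 1. For MHC class II and Langerhans cell genes the median was -0.58, or -0.999 without Control 1 and -0.21 without D100L150 1. Every gene of the neutrophil, T and NK cell and MHC class II lists overlapped between groups. In the macrophage and chemokine lists 1 gene each had every D100L150 value above every Control value, where 11.0% of all genes did. Only 1 of the listed B and plasma cell genes passed the filter on low values. Fibroblast and matrix genes had a median of -0.39, or -0.70 without Control 1 and 0.04 without D100L150 1, with Col1a1 at 843, 2175 and 1431 FPKM in D100L150 and 919.7, 2347 and 2693 FPKM in Control (-0.38 ± 0.41, adjusted p = 0.609). Cell cycle genes had a median of -0.02, or 0.11 without Control 1 and 0.10 without D100L150 1, and Mki67, a proliferation marker, had 6.48, 11.8 and 11 FPKM in D100L150 and 13, 10.9 and 11.7 FPKM in Control (-0.29 ± 0.21, adjusted p = 0.434). Glycolysis and hypoxia genes were positive in all 15 cases, with a median of 0.72 that was 0.28 without D100L150 1. The glucose transporter Slc2a1 had 272, 78.2 and 77.1 FPKM in D100L150 and 66.9, 42.3 and 62.8 FPKM in Control (1.06 ± 0.48, adjusted p = 0.23).

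Globin RNA was higher in D100L150 without a call. The 5 red cell genes tested were all higher in every D100L150 library than in every Control library, where 11.0% of all genes were. Their median log2 difference was 2.24, or 2.91 without Control 1 and 1.5 without D100L150 1. Hbb-bs had 1512, 389 and 337 FPKM in D100L150 and 259.7, 38.3 and 71.3 FPKM in Control (2.69 ± 0.84, adjusted p = 0.106), and Hba-a1 had 913, 212 and 206 FPKM in D100L150 and 194, 36.7 and 54.5 FPKM in Control (2.21 ± 0.81, adjusted p = 0.146). These genes exist as near-identical pairs, so that the pair and not the copy is measured. How much blood each flap held at collection was not measured.

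**Figure D5:**
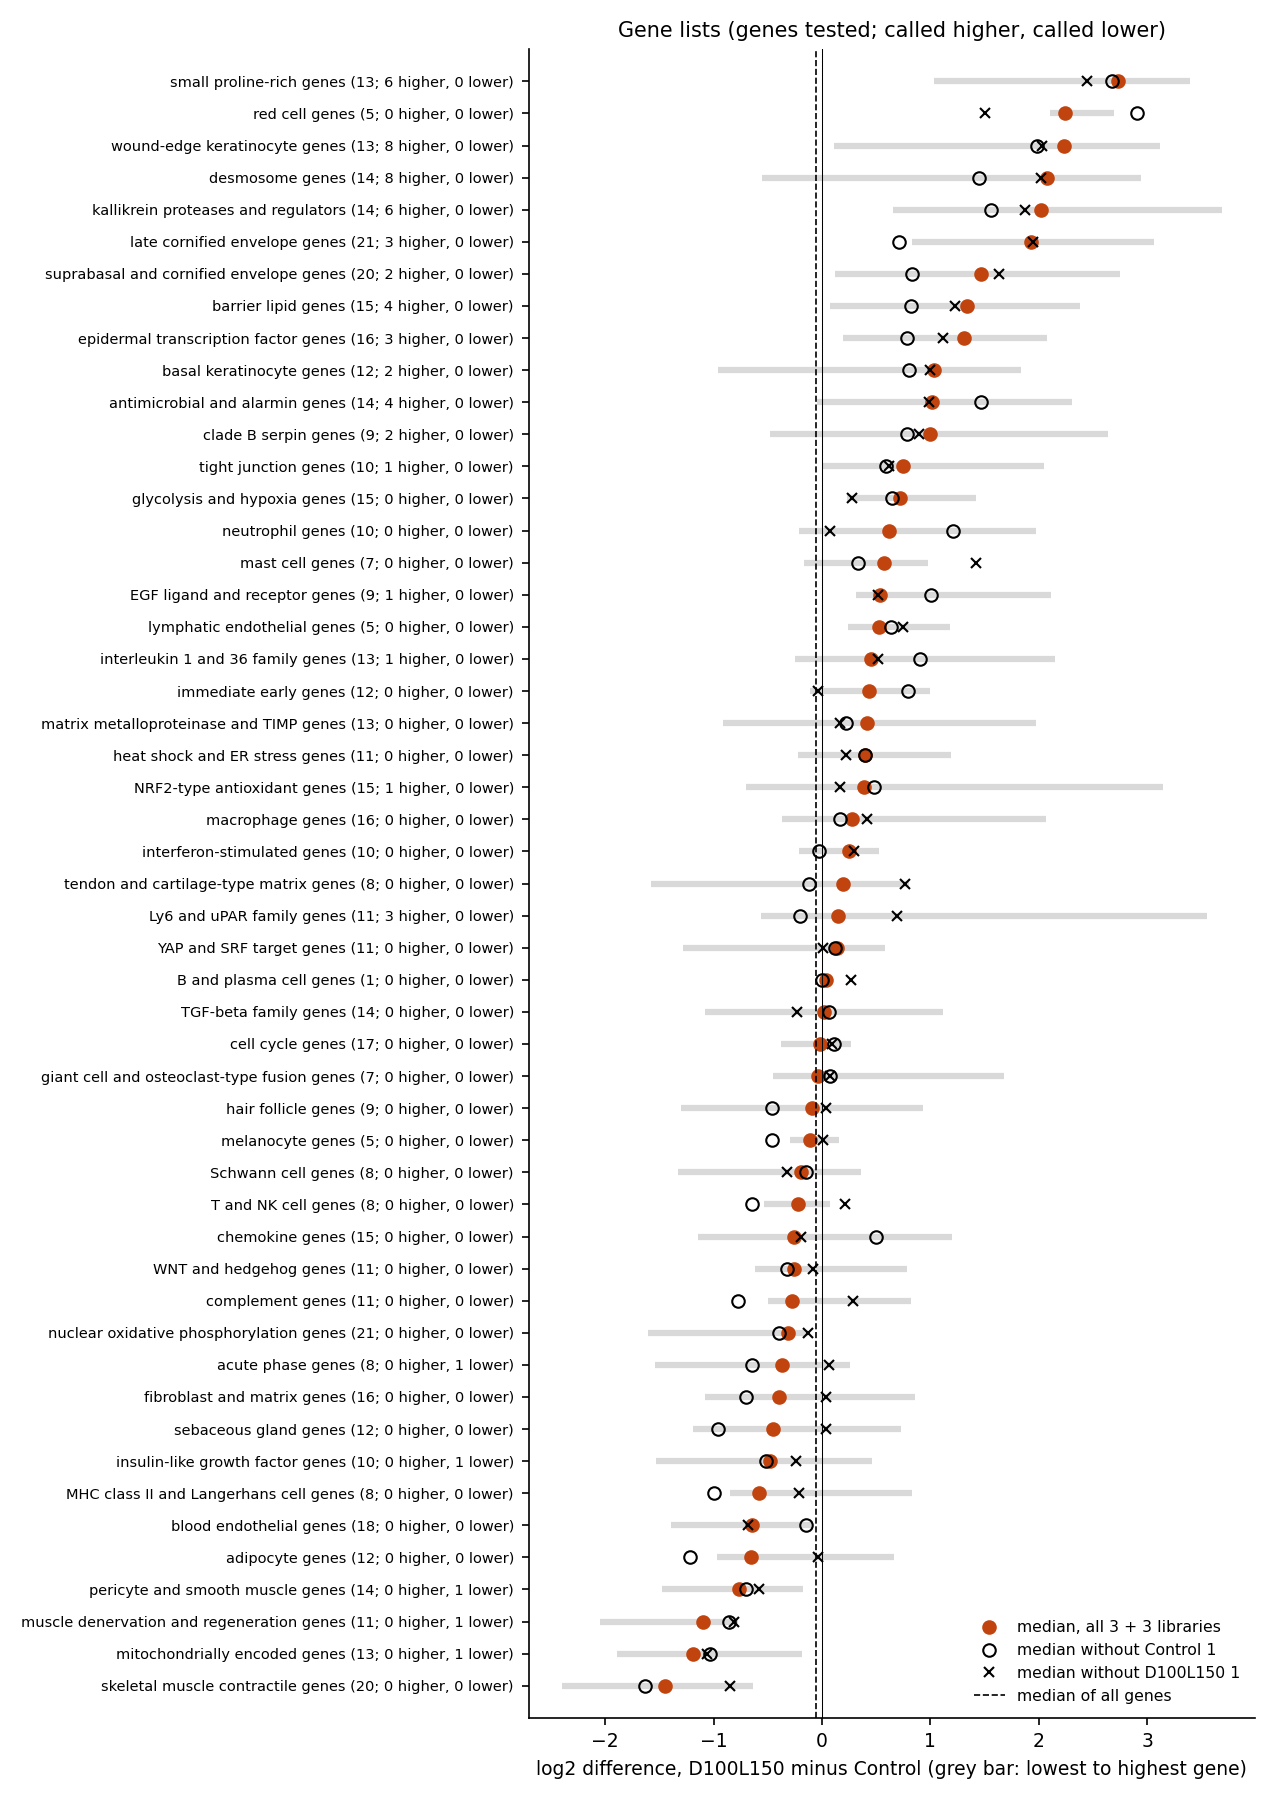
Median log2 difference (D100L150 minus Control, horizontal axis) of 51 gene lists, with all libraries (orange), without Control 1 (open circles) and without D100L150 1 (crosses); grey bars run from the lowest to the highest gene, and the dashed line is the median of all genes, -0.05. With all libraries, small proline-rich genes stand highest, at 2.73, and skeletal muscle contractile genes lowest, at -1.45, while late cornified envelope genes move to 0.71 without Control 1.

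Against the mean of the other 4 spacer groups, which uses no Control library, no gene was called by limma (0%). There were 1414 genes at an unadjusted p under 0.05, the smallest adjusted p was 0.459, and limma-voom on recovered fragments called 0 as well. The genes called higher against Control had a median difference from the other spacers of 0.36, and 50 of the 139 had an unadjusted p under 0.05. For the 42 called lower the median was -0.28, and 22 had an unadjusted p under 0.05. Both contrasts use the D100L150 libraries, so these values are not independent. By smallest p, Cd36, a fatty acid receptor, had 129.7, 102 and 97.2 FPKM in D100L150 and 43.3 to 74.6 FPKM in the 12 other spacer libraries, a log2 difference from their mean of 0.85 ± 0.16 (unadjusted p = 7.9e-05). Fam83a, an EGF receptor pathway protein, had 13.4, 7.71 and 9.42 FPKM in D100L150 and 1.4 to 10.2 FPKM in the others, overlapping them (1.09 ± 0.22, unadjusted p = 0.000171), and it was also called against Control (2.22 ± 0.27, adjusted p = 0.00737). The lipid droplet protein Plin2 differed by 0.65 ± 0.14 (unadjusted p = 0.000246). On the lower side, the WNT inhibitor Sfrp5 had 0.115, 0.407 and 0.693 FPKM in D100L150 and 0.791 to 5.26 FPKM in the others (-1.35 ± 0.27, unadjusted p = 0.0002). Gli1, the hedgehog target, had 0.128, 0.836 and 0.369 FPKM in D100L150 and 0.882 to 3.78 FPKM in the others (-0.95 ± 0.20, unadjusted p = 0.000239). The suprabasal keratin Krt10 had 11.2, 215 and 70.2 FPKM in D100L150 and 26 to 734 FPKM in the others, with D100L150 1 lowest. It differed by -2.26 ± 0.92 (unadjusted p = 0.028) and Krt1 by -1.99 ± 0.81 (unadjusted p = 0.0278), against 0.86 ± 0.26 (unadjusted p = 0.00513) for Krt6a and 1.05 ± 0.33 (unadjusted p = 0.00661) for Gjb2. None of these passed the adjustment over all genes, and the difference between Krt10 and Krt6a was not tested.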

How the data were processed

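RNA was taken from 18 mouse skin flap libraries. The authors deposited 1 FPKM table. Tools listed in the submitters' processing notes, without saying which did what, are DESeq2, fastp, HTSeq, HISAT2 and R 3.2.0, and the genome build listed is mm10. How strand was handled is not given in the sources used here. After scaling for relative depth, the deposited FPKM values of each of the 27743 genes fitted whole multiples of a common step. The smallest fitting multiples were taken as recovered fragments, for depth and for limma-voom. A gene above 0 in no library or in 1 library fits in any case. The libraries were grouped by the labels. The table was fitted as log2(FPKM + 1), which understates changes of low genes, with limma 3.58.1 in R 4.3.3 over all 18 libraries, using group means and a robust, trended variance. Genes had to reach 1 FPKM in 3 libraries, and p-values were Benjamini-Hochberg adjusted over all 13078 genes. The D100L150 group was set against Control and against the mean of the other 4 spacer groups. The mitochondrial share was compared by an exact permutation test (scipy 1.17.1). List medians and counts are descriptions with no test. The comparison and the 51 gene lists were chosen with earlier results of these data known. Named genes were the 20 largest called changes in each direction, the 10 smallest p-values in each direction against other spacers, and the first 3 and 6 most significant members of each list. Krt17, Plau, Plaur, Itga5, Tnc, Fosl1, Lor, Flg, Perp and Dsp were chosen after their values were seen. Gene positions and promoters come from RefSeq for GRCm38.p6. Alternatives were the pseudocount, the filter, scaling, variance model, count model, libraries in the fit, a replicate block and a muscle covariate. Paired numbers were checked only as an alternative. Not every called gene is reported here.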

Additional observations from a re-analysis of the deposited data

How the results depend on the processing

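The count of 181 called genes depended on several choices. It was 50 with no filter on low values, 90 with limma-voom on recovered fragments, 20 once skeletal muscle level entered as a covariate and 0 when only the 2 groups compared entered the fit, where 1584 genes had an unadjusted p under 0.05. Lower calls, 42 as reported, were 9 with no filter, 13 with limma-voom and 0 with the muscle covariate. Without the trended, robust variance it was 200. Leaving out 1 library at a time gave 0 to 307 calls, and without D100L150 2 most calls were lower, with 120 higher and 184 lower. Without Control 1 and D100L150 1 together, an alternative chosen after seeing the data, there were 0 calls in limma, 944 genes at an unadjusted p under 0.05, and medians of 1.58 for the 139 higher genes and -0.53 for the 42 lower genes. With the replicate number as a block the count was 46, with 45 higher and 1 lower. The deviations of same-numbered libraries correlated at 0.53, 0.447 and -0.105. The labels name no pairing, so the numbers were not taken as pairs. Whether same-numbered libraries share a factor was not tested. Removing mitochondrial genes from the scaling gave 200 calls, of which 67.5% were higher, against 76.8% as reported and 87.3% after quantile scaling. Over the genes that could be named and all alternatives, no value was called in the opposite direction. Of those values 672 lost the call, 46 gained it and 6230 kept their side of the threshold. Since 76 of the genes that could be named were called, most values that kept their side were of genes not called. Of the 76, 0 kept the call without Control 1, without D100L150 1 or with only the 2 groups compared. With the muscle covariate 12 kept it, with limma-voom 37, with quantile scaling 61 and without the trended, robust variance 76. In the contrast with the other spacers the genes at an unadjusted p under 0.05 ran from 159 without D100L150 1 to 2615 without D100L150 2. With at least 28422344 recovered fragments a library, counting error is small for abundant genes.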
